A study of Mus musculus with 800 samples.

Results

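The 32 genes described here encode the transport, breakdown and disposal of glucose together with a group of genes that respond to low oxygen. They were chosen by name, not by a measured value, but with earlier results of these data known. They are the glucose transporters, glycolytic enzymes, lactate dehydrogenases and carriers, regulators of pyruvate entry into mitochondria and hypoxia response genes listed for the series. All 32 were found among 49585 gene rows of the deposited count table, each as 1 row. The series holds 800 single-cell libraries from C57BL/6 mouse retina at stage E15.5, from the Sert-Cre line, named for Cre recombinase under the gene of the serotonin transporter, Slc6a4. Papain-dissociated cells were sorted by flow cytometry. The genotype label was Tomato+ for 400 cells and Tomato- for 400 cells, and both groups carry the same strain, stage and tissue labels. The protocol describes 30 retinas and names no animal for any cell, so each label is 1 sample, and no p-value or standard error over cells is given.

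Glycolysis splits glucose into pyruvate in a preparatory phase that spends ATP and a payoff phase that returns it. Lactate dehydrogenase then reduces pyruvate to lactate for export, or pyruvate enters mitochondria through its carrier and the pyruvate dehydrogenase complex, which the Pdk kinases inhibit. Dividing cells commonly keep up a high glycolytic rate even with oxygen present, and many enzymes of the chain exist as isoforms that proliferating cells and neurons use to different extents. Under low oxygen, the factor HIF-1 binds a short core sequence near many of these genes and raises their transcription.

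A cell was kept when at most 20% of its counts came from mitochondrially encoded genes, which left all but 73 of the 400 Tomato+ and all but 38 of the 400 Tomato- cells, with totals of 9653 to 689788 counts. Of the kept Tomato- cells, 54.1% (exact 95% interval 48.9 to 59.4) had at least 5 counts of Fgf15, a fibroblast growth factor made by dividing progenitors, and are called Fgf15+. The neurogenic factor Atoh7 reached 5 counts in 46 Tomato- cells and Pou4f2, a factor of retinal ganglion cells (RGCs), in 93. Of the 93 Pou4f2+ Tomato- cells, 27 were also Fgf15+. Of the kept Tomato+ cells, 64.8% (59.4 to 70) were Pou4f2+, while 9 cells were Fgf15+ and 3 Atoh7+, so the last pair of populations was left out of comparisons. Leaving aside the genes that define the gates, 8 of 9 progenitor markers were more than 2-fold higher in Fgf15+ than in Pou4f2+ Tomato- cells, and 11 of 11 RGC markers were more than 2-fold lower.

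Levels are CPM, a gene's counts scaled by the total of all genes, from the counts summed over a population, and the spread is given over the number in the library titles. Title numbers 1 to 10 are all Tomato+ and 11 to 20 all Tomato-, with 40 cells each, and their meaning is not stated, so the label and anything that differs with the title number cannot be told apart. A title number was used where it held at least 5 cells of the population. Log2 ratios were taken after adding 10 CPM to both values, and a gene is counted as lower or higher when that ratio passes 2-fold. The error beside a log2 ratio is the standard deviation (SD) of log2(CPM + 10) between title numbers, pooled over both populations. Fold values without a logarithm are plain ratios of CPM. Slc6a4 itself was at 115.4 CPM in Pou4f2+ Tomato+ cells and at 0.935 CPM in Pou4f2+ Tomato- cells.

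Promoter sequences are shown for the members more than 2-fold higher in Fgf15+ than in Pou4f2+ Tomato- cells that hold a hypoxia response core. Their isozyme partners are shown too, except Slc2a3, the partner of Slc2a1, which has no promoter entry. The members that were more than 2-fold lower (Pfkp, Pfkfb3 and Eno2) are not shown. Ldha and Ldhb were added after their values were seen. Each stretch lies upstream of the RefSeq start site on GRCm38.p6, is written 5′ to 3′ on the gene's strand, and has the core ACGTG or GCGTG, or its reverse complement, in capitals. Where CACGTG is in capitals, ACGTG was matched on both strands and the matches overlap. The stretch of Hk1 shows 1 of the 3 matches in its promoter, so its number of cores cannot be compared with that of Hk2. It also overlaps an annotated exon by 25 bases, and the stretches of Slc2a1, Pdk3 and Slc16a3 overlap one by 4, 3 and 5 bases. Hk1, Pdk2 and Ldha each have another promoter, not shown, with 0, 0 and 1 matches.
Slc2a1 (chr4:119108645-119108714, plus strand): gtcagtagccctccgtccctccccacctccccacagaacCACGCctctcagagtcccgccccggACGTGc
Hk2 (chr6:82774495-82774694, minus strand): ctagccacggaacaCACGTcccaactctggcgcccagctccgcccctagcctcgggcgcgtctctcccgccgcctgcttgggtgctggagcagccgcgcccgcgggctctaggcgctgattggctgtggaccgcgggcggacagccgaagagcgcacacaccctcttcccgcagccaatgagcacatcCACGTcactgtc
Slc16a1 (chr3:104638444-104638543, plus strand): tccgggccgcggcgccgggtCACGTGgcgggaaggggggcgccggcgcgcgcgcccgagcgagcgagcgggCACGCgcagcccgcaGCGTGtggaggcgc
Pdk3 (chrX:93832199-93832330, minus strand): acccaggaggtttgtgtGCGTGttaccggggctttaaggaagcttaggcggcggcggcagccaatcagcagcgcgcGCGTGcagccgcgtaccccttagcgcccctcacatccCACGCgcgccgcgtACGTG
Hk1 (chr10:62340552-62340631, minus strand): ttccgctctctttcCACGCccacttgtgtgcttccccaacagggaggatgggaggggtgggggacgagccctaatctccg
Slc16a3 (chr11:120948987-120949057, plus strand): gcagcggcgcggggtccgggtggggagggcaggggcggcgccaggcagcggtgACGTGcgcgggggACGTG
Pdk2 (chr11:95041472-95041521, minus strand): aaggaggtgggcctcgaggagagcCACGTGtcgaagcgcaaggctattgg
Ldha (chr7:46845644-46845783, plus strand): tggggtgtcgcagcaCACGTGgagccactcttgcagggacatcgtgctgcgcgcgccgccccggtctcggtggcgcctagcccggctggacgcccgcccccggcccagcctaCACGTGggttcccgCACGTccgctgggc
Ldhb (chr6:142508058-142508117, minus strand): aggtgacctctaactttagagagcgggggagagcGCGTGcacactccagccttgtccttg

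The 250 bases before the start site were searched in all promoters of the table. A core on either strand was found in at least 1 promoter of 28 of the 31 members with an entry (90.3%), against 41.5% of all 27025 genes. A gene with several promoters has more chances to hold one. Counted by promoter, 36 of 47 member promoters held a core, against 38.6% of all 32851 promoters. Among genes with a mean of at least 10 CPM over the Fgf15+ and Pou4f2+ populations, the same share was 64.8%, and 23 of 26 such members (88.5%) held one. The narrower core ACGTG was present in 14 of these 26 members (53.8%) and in 26.1% of the genes at that level. Ldha had 5 matches of ACGTG in its listed window, while Ldhb had a single match of GCGTG. A match describes letters in the window only.

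The chain as a whole differed little between the progenitor and the RGC gate. Single members did pass 2-fold, in a share not far above that of all genes. In Fgf15+ against Pou4f2+ Tomato- cells, 4 members were more than 2-fold higher (Slc2a1, Hk2, Slc16a1 and Pdk3) and 3 more than 2-fold lower (Pfkp, Pfkfb3 and Eno2). Over the 9161 genes with a mean of at least 10 CPM, 9.2% were higher and 6.42% lower by the same rule. The members' median log2 ratio was 0.05, against 0.03 over those genes. In Pou4f2+ cells, Tomato+ against Tomato-, 5 members were more than 2-fold lower (Slc2a1, Pfkfb3, Ldha, Pdk1 and Vegfa) and 1 was higher (Pfkm). Over 8733 genes at that level, 2.93% were lower and 2.11% higher. The members' median was -0.09 and that of those genes -0.04. Both comparisons use the same 93 Pou4f2+ Tomato- cells, so each comparison's values are given side by side and not correlated.

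**Figure D1:**
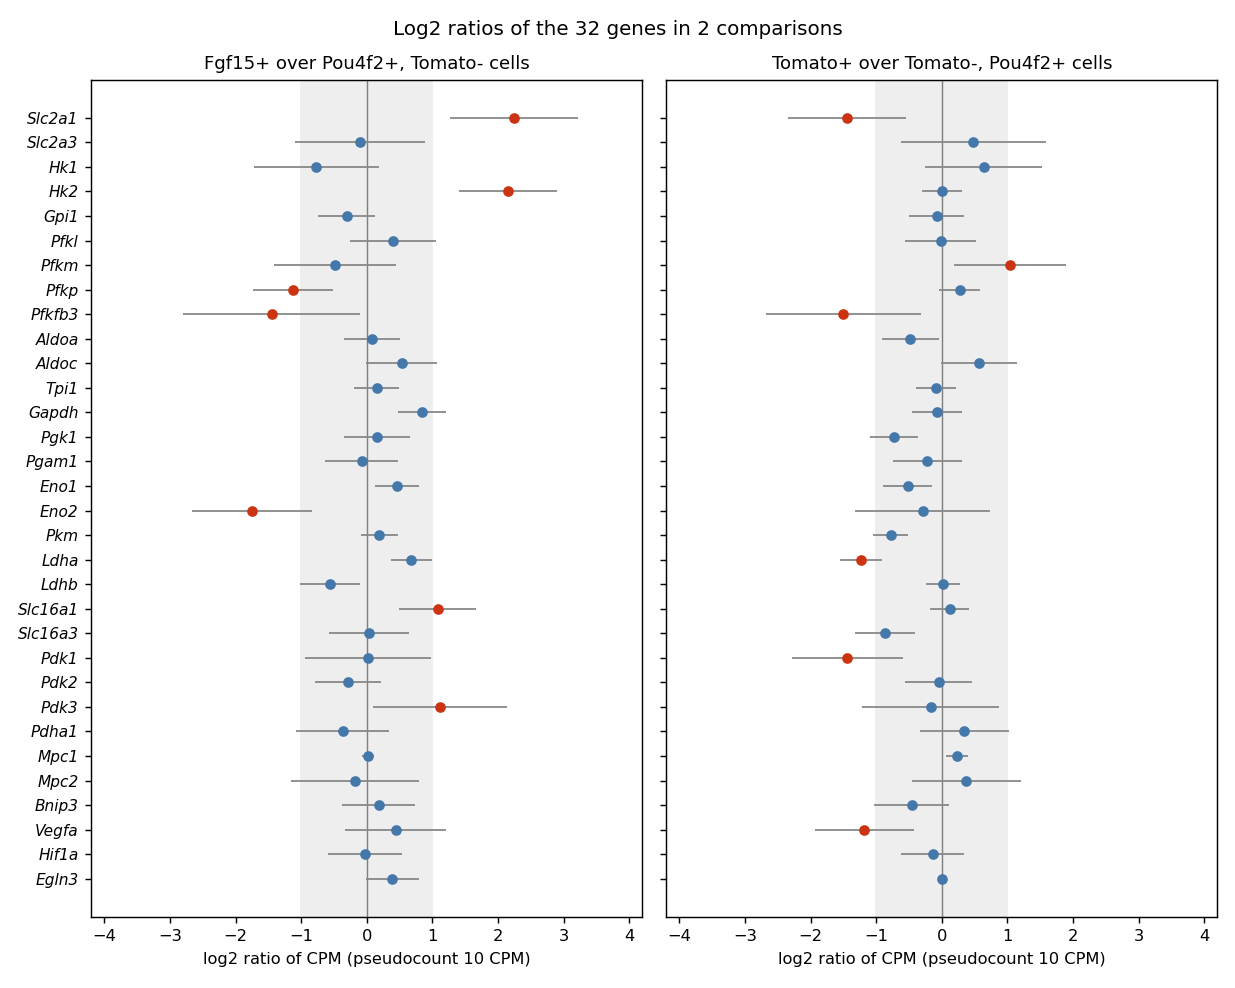
Log2 ratios of CPM with 10 CPM added, for the 32 members in order of their role; bars are the SD between title numbers, the grey band spans less than 2-fold, and red points lie outside it. The left panel has 4 members above and 3 below the band, and the right panel 1 above and 5 below, with Slc2a1 and Pfkfb3 outside it in both.

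Slc2a1, the main glucose transporter of dividing cells and of the blood barriers, was higher in the progenitor gate. Its level ran from 87.5 to 366.4 CPM over title numbers in Fgf15+ cells, with a median of 207.4, and from 0.764 to 153.5 CPM with a median of 17.1 in Pou4f2+ Tomato- cells. In Pou4f2+ Tomato+ cells it ran from 0.203 to 15.6 CPM with a median of 5.40. Title number 15 was the highest of both Tomato- populations, and only its Pou4f2+ cells reached into the Fgf15+ range. Summed over cells, the levels of Slc2a1 were 211.2 CPM (exact Poisson interval 207.2 to 215.4), 36.7 CPM (34.5 to 38.9) and 7.09 CPM (6.43 to 7.79). The Fgf15+ level was 5.76-fold that of Pou4f2+ Tomato- cells (log2 ratio 2.24 ± 0.98), with the higher value in Fgf15+ cells of each of the 10 title numbers. The Tomato+ level was lower again, with a log2 ratio of -1.45 ± 0.90 and overlapping title numbers, and the ratio was -0.89 with Fgf15+ and Atoh7+ cells left out and -1.38 with Ccnd1+ and Top2a+ cells left out as well. At least 5 counts of Slc2a1 were found in 63.8% of Fgf15+ cells, 27.96% of Pou4f2+ Tomato- cells and 10.38% of Pou4f2+ Tomato+ cells. With each cell thinned to 94783 counts, leaving out 23, 1 and 5 shallower cells, the shares were 61.3%, 19.6% and 6.28%.

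Slc2a3, the high-affinity glucose transporter typical of neurons, was within 2-fold in both comparisons. It was at 11.9 CPM in Fgf15+, 13.6 CPM in Pou4f2+ Tomato- and 22.8 CPM in Pou4f2+ Tomato+ cells. These levels rest on few cells, since the 5 highest cells held 95.8%, 98.8% and 73.9% of its counts. With Fgf15+, Atoh7+, Ccnd1+ and Top2a+ cells left out, its log2 ratio between the labels was 1.72, past 2-fold, against 0.48 with them.

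Among the preparatory enzymes, the hexokinases were used differently by the gates. Hk2, the hypoxia-inducible hexokinase of growing tissues, ran from 0 to 144.2 CPM with a median of 38.6 over title numbers of Fgf15+ cells, and from 0 to 6.68 CPM with a median of 0.813 in Pou4f2+ Tomato- cells. The populations overlapped only through title number 12, where Fgf15+ cells had 0 CPM. Summed, Hk2 was at 42.3 CPM in Fgf15+ cells, 1.77 CPM in Pou4f2+ Tomato- cells and 1.74 CPM in Pou4f2+ Tomato+ cells. The log2 ratio of Fgf15+ over Pou4f2+ Tomato- cells was 2.15 ± 0.75, and the Fgf15+ value was higher in 9 of 10 title numbers. Title number 13 held the highest value, and without it the log2 ratio was 1.82.

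Hk1, the constitutive hexokinase of brain, went the other way without passing 2-fold. It was at 20.2 CPM in Fgf15+, 41.4 CPM in Pou4f2+ Tomato- and 70.1 CPM in Pou4f2+ Tomato+ cells, and it was lower in Fgf15+ cells in 9 of 10 title numbers (log2 ratio -0.77 ± 0.95). With the cells positive for both markers left out, that ratio was -1.0, and 4 members in place of 3 were counted as lower in Fgf15+ cells. Between the labels the log2 ratio of Hk1 was 0.64 ± 0.89, and 1.17 with Fgf15+, Atoh7+, Ccnd1+ and Top2a+ cells left out. Few cells held both hexokinases at 5 counts, but most cells of both populations held neither at that level. In Fgf15+ cells, 29 had Hk2 alone, 16 Hk1 alone and 3 both. In Pou4f2+ Tomato+ cells, 2 had Hk2 alone, 89 Hk1 alone and 1 both. Such low detection by itself leaves few cells with both. Whether Hk1 and Hk2 avoid each other within cells was not tested. Hk1 has an annotated antisense neighbour, and whether counting used the strand is not stated.

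Phosphofructokinase, the committed step of glycolysis, has 3 subunit types, each from its own gene. Pfkp, the platelet-type subunit, ran from 47.2 to 305.7 CPM with a median of 143.6 in Fgf15+ cells and from 210 to 460 CPM with a median of 350.8 in Pou4f2+ Tomato- cells. Its Fgf15+ value was the lower in all 10 title numbers although the ranges overlapped, and the log2 ratio was -1.13 ± 0.61. In Pou4f2+ Tomato+ cells Pfkp was at 438 CPM, within 2-fold of the Tomato- value. Pfkm, the muscle-type subunit, was at 11.4 CPM in Fgf15+, 19.9 CPM in Pou4f2+ Tomato- and 51.3 CPM in Pou4f2+ Tomato+ cells. Its log2 ratio of 1.04 ± 0.85 between the labels was just past 2-fold, and it fell short of it without any of title numbers 5, 7, 10, 12, 13, 15, 18 or 19, with values from 0.90 to 0.99. With Fgf15+ and Atoh7+ cells left out it was 0.85. Pfkl, the liver-type subunit, was at 25.97, 17.3 and 16.9 CPM in the same order of populations.

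Pfkfb3, which makes the activator of phosphofructokinase, was highest in the Pou4f2+ Tomato- cells. Over title numbers it ran from 0 to 251.9 CPM there, with a median of 70.03, from 0.934 to 56.3 CPM with a median of 12.7 in Fgf15+ cells, and from 8.52 to 45.5 CPM with a median of 14.2 in Pou4f2+ Tomato+ cells. All ranges overlapped. The summed levels of 74.99, 21.2 and 20.1 CPM gave log2 ratios of -1.45 ± 1.35 for Fgf15+ over Pou4f2+ Tomato- cells and -1.50 ± 1.18 for Tomato+ over Tomato-. The 5 highest cells held 48.8% of its counts in the Pou4f2+ Tomato- population. With at most 10% mitochondrial counts, neither ratio passed 2-fold, at -0.80 between the gates and -0.83 between the labels.

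The remaining preparatory enzymes stayed within 2-fold in both comparisons. Gpi1, glucose phosphate isomerase, was at 190, 238.5 and 224.9 CPM in Fgf15+, Pou4f2+ Tomato- and Pou4f2+ Tomato+ cells. Aldoa, the ubiquitous aldolase, was at 564, 535 and 380 CPM, and Tpi1, triose phosphate isomerase, at 333.5, 299.5 and 280.7 CPM. Aldoc, the brain aldolase, was at 5.34 CPM or below in all 3, with at least 98.7% of its counts in 5 cells of each population.

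In the payoff phase, Gapdh was the only member whose title numbers did not overlap between the progenitor and the RGC gate. It ran from 260 to 545 CPM with a median of 341.2 in Fgf15+ cells and had a lowest value of 98.2 and a median of 183.4 CPM in Pou4f2+ Tomato- cells, each of whose title numbers lay below the lowest Fgf15+ value. Of the 9161 genes, 1.15% were higher in Fgf15+ cells with no overlap and 0.502% lower. The log2 ratio was 0.84 ± 0.37, short of 2-fold, from sums of 352.4 and 192.2 CPM. Pou4f2+ Tomato+ cells had 182.7 CPM, close to the Tomato- value (log2 ratio -0.07 ± 0.38). With the 27 cells positive for both markers left out, the log2 ratio of Fgf15+ over Pou4f2+ cells was 1.11. Gapdh encodes the enzyme that couples aldehyde oxidation to NADH formation and is often used as a reference gene.

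Of the enolases, Eno2 passed 2-fold between the gates, while Eno1 held most of the pair's counts in each population. Eno2, the neuronal enolase, ran from 0 to 3.53 CPM with a median of 0.140 in Fgf15+ cells, from 0 to 86.3 CPM with a median of 21.3 in Pou4f2+ Tomato- cells, and from 1.70 to 37.1 CPM with a median of 17.9 in Pou4f2+ Tomato+ cells. The Fgf15+ values lay at the bottom of the Pou4f2+ range, which itself reached 0. Summed levels were 0.829, 26.4 and 19.6 CPM, and the log2 ratio of Fgf15+ over Pou4f2+ Tomato- cells was -1.75 ± 0.91. At least 5 counts were present in 3 Fgf15+ cells (1.53%) and in 12 of 93 Pou4f2+ Tomato- cells (12.9%). Eno1, the widely expressed enolase, was at 658, 476 and 330 CPM, and it was higher in Fgf15+ cells in 10 of 10 title numbers without passing 2-fold (log2 ratio 0.46 ± 0.34).

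Pkm, pyruvate kinase, and Pgk1, phosphoglycerate kinase, stayed within 2-fold in both comparisons. Pkm ran from 1130 to 1777 CPM in Fgf15+ cells and from 734 to 1577 CPM in Pou4f2+ Tomato- cells, with medians of 1373 and 1156. In Pou4f2+ Tomato+ cells it ran from 528 to 786 CPM with a median of 714, so that the labels overlapped only through the lowest Tomato- value, in title number 12. The log2 ratio was 0.19 ± 0.28 between the gates and -0.78 ± 0.27 between the labels. Pgk1 was at 96.7 and 86.2 CPM in the Tomato- populations and at 48.02 CPM in Pou4f2+ Tomato+ cells (log2 ratio between the labels -0.73 ± 0.36). The table has 1 row for Pkm, so its M1 and M2 splice forms, which mark neurons and dividing cells, were not separated. Pgam1, phosphoglycerate mutase, was at 5.74, 6.58 and 4.23 CPM. How reads that match several similar sequences were counted is not stated, so a low level need not mean little transcript.

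**Figure D2:**
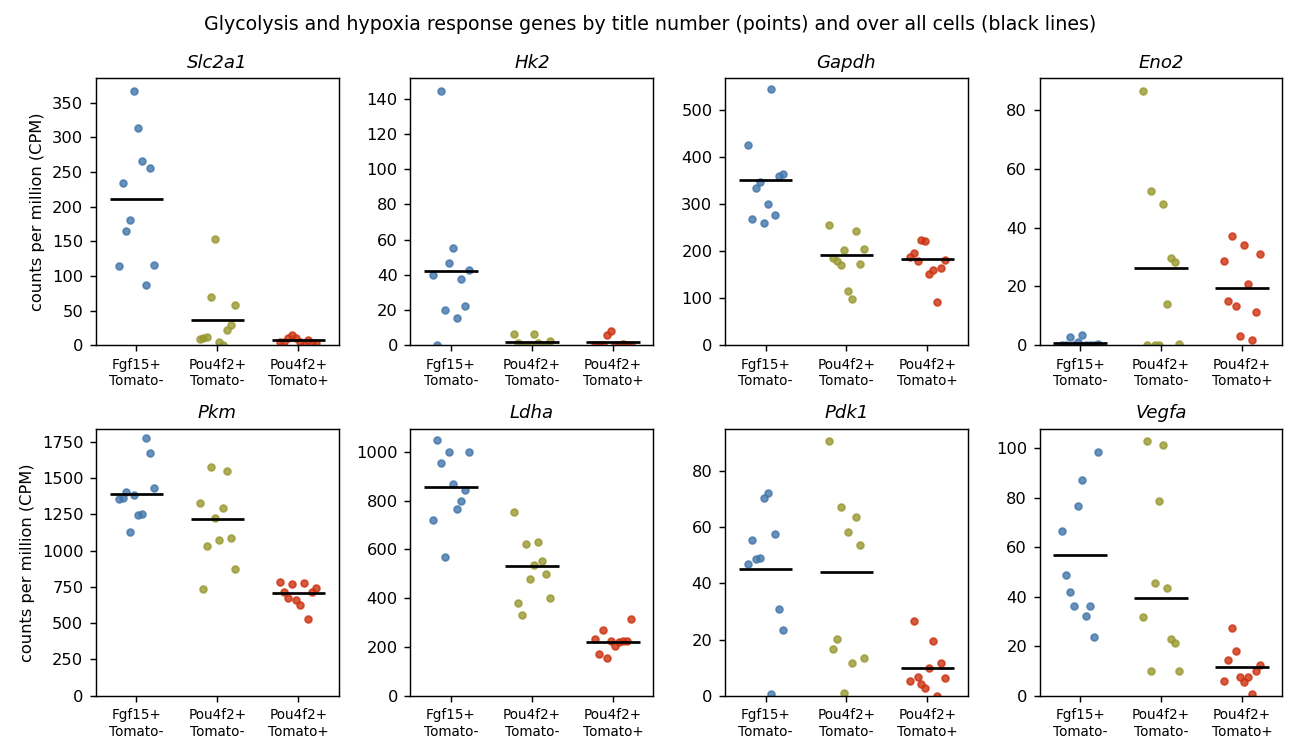
CPM of 8 members by title number (points, 10 per population) and summed over all cells (black lines), in Fgf15+ Tomato-, Pou4f2+ Tomato- and Pou4f2+ Tomato+ cells. Gapdh points do not overlap between the first 2 populations, and Ldha points do not overlap between the last 2.

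Ldha, the lactate dehydrogenase subunit that favours lactate formation, stepped down over all 3 populations. Over title numbers it ran from 567 to 1050 CPM with a median of 857 in Fgf15+ cells, from 331.9 to 752 CPM with a median of 517 in Pou4f2+ Tomato- cells, and from 154.4 to 314.5 CPM with a median of 223.3 in Pou4f2+ Tomato+ cells. The Pou4f2+ populations did not overlap between the labels, while Fgf15+ and Pou4f2+ Tomato- cells did. Summed levels were 858, 533 and 220.2 CPM. The log2 ratio was 0.68 ± 0.31 between the gates and -1.24 ± 0.32 between the labels. Among the 8733 genes, 0.0344% were lower in Tomato+ cells with no overlap of title numbers, that is 3 genes. The other two were Ptma (1350 against 2152 CPM) and Npm1 (900 against 1529 CPM), both abundant in growing cells and named here after their values were seen, and 0.195% of genes were higher in the same way.

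The Ldha difference between the labels depended on which Tomato- cells entered. With Fgf15+ and Atoh7+ cells left out, 61 Tomato- cells remained and the log2 ratio was -1.07. With cells that had 5 counts of the cell cycle genes Ccnd1 or Top2a left out as well, an alternative chosen after seeing the data, 33 Tomato- cells remained at 340.7 CPM against 219.7 CPM in the Tomato+ cells, and the log2 ratio was -0.61. The progenitor markers moved with the same contrast: their summed level was 824 CPM (171.9 to 2450 over title numbers) in Pou4f2+ Tomato- cells and 85.4 CPM (31.7 to 316.8) in Pou4f2+ Tomato+ cells, with 6 of 10 more than 2-fold lower. Neurogenic precursor markers were lower in 4 of 8, at a summed 114.1 against 479.8 CPM, and markers of amacrine, horizontal and photoreceptor precursors in 4 of 10, at 622.3 against 625.8 CPM. Of the erythroid genes 5 of 6 were higher in Tomato+ cells, at 1587 CPM (2.10 to 11804 over title numbers) against 2.14 CPM (0.276 to 5.82). Beyond these alternatives their part in the result was not tested.

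Ldhb, the subunit of the heart-type enzyme that favours lactate use, did not follow Ldha. Over title numbers it ran from 116.8 to 523 CPM with a median of 270 in Fgf15+ cells, from 371.5 to 562 CPM with a median of 416 in Pou4f2+ Tomato- cells, and up to 591 CPM with a median of 468 in Pou4f2+ Tomato+ cells. The populations overlapped in both comparisons. The log2 ratio was -0.56 ± 0.46 between the gates, lower in Fgf15+ cells in 9 of 10 title numbers, and 0.02 ± 0.26 between the labels.

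The lactate carriers were low. Slc16a1, the widely expressed monocarboxylate transporter, was at 17.3 CPM in Fgf15+ cells and 2.91 CPM in Pou4f2+ Tomato- cells, and higher in Fgf15+ cells in 9 of 10 title numbers (log2 ratio 1.08 ± 0.59). The 5 highest cells held 55.5% of its Fgf15+ counts, and without title number 13 the log2 ratio was 0.84. Slc16a3, the exporter induced in glycolytic cells, was at 14.7 CPM in Fgf15+, 14.3 CPM in Pou4f2+ Tomato- and 3.27 CPM in Pou4f2+ Tomato+ cells. Its log2 ratio between the labels was -0.87 ± 0.46 with 10 CPM added and -1.84 with 1 CPM added.

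At the entry of pyruvate into mitochondria, Pdk1 and Pdk3, kinases that switch off pyruvate dehydrogenase, differed in different comparisons. Pdk1, a HIF-1 target, ran from 0.959 to 90.6 CPM with a median of 37.0 in Pou4f2+ Tomato- cells and from 0 to 26.5 CPM with a median of 6.56 in Pou4f2+ Tomato+ cells, and the ranges overlapped. Its summed level was 45.03 CPM in Fgf15+ cells, 44.1 CPM in Pou4f2+ Tomato- and 9.92 CPM in Pou4f2+ Tomato+ cells. The log2 ratio was 0.02 ± 0.96 between the gates and -1.44 ± 0.84 between the labels. Pdk3 was at 51.99 CPM in Fgf15+ and 18.6 CPM in Pou4f2+ Tomato- cells, higher in Fgf15+ cells in 10 of 10 title numbers (log2 ratio 1.12 ± 1.02). In the latter population 92.3% of its counts lay in 5 cells, and without title number 13 the log2 ratio was 0.94. Pdk2, a further kinase of this family, was at 2.82, 5.65 and 5.13 CPM.

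Pdha1, the catalytic subunit of pyruvate dehydrogenase, was at 48.6, 65.7 and 86.1 CPM in Fgf15+, Pou4f2+ Tomato- and Pou4f2+ Tomato+ cells. The mitochondrial pyruvate carrier is built from Mpc1 and Mpc2. Mpc2 was at 156.4, 178.1 and 232.5 CPM and Mpc1 at 0.663, 0.501 and 2.34 CPM. None of the 3 passed 2-fold in these comparisons.

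Of the hypoxia response genes, Vegfa differed with the label. This gene for the main growth factor of blood vessels ran from 10.03 to 102.8 CPM with a median of 37.6 over title numbers of Pou4f2+ Tomato- cells and from 0.566 to 27.6 CPM with a median of 8.86 in Pou4f2+ Tomato+ cells, with overlap. Summed levels were 56.97 CPM in Fgf15+ cells, 39.4 CPM in Pou4f2+ Tomato- and 11.8 CPM in Pou4f2+ Tomato+ cells, with log2 ratios of 0.44 ± 0.77 between the gates and -1.18 ± 0.75 between the labels. Without Fgf15+, Atoh7+, Ccnd1+ and Top2a+ cells, the latter was -0.86.

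Hif1a, the oxygen-regulated subunit of HIF-1, was nearly level at 185.6, 189.5 and 170.8 CPM. Its log2 ratios were -0.03 ± 0.56 between the gates and -0.14 ± 0.48 between the labels. HIF-1 is controlled mainly through the stability of this protein, which transcript counts do not measure. Bnip3, a mitophagy receptor, was at 35.8, 30.3 and 19.4 CPM. Egln3, the prolyl hydroxylase that is itself a HIF target, was at 3.07 CPM in Fgf15+ cells, where 99.3% of its counts lay in 5 cells, and 0 counts in both Pou4f2+ populations, which allows up to 0.1002 CPM in the Tomato- and 0.0498 CPM in the Tomato+ cells.

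Isozyme pairs were compared by the difference between the log2 ratios of both genes, each with 10 CPM added, so that the value understates the change of low genes. The share of a pair's counts has nothing added and depends on transcript length. Hk2 over Hk1 was higher in Fgf15+ than in Pou4f2+ Tomato- cells by 2.92 ± 1.25 on the log2 scale. Hk2 made up 67.7% and 4.10% of the pair's counts, with overlapping ranges over title numbers (0 to 99.4% and 0 to 19.05%). Eno1 over Eno2 was higher by 2.20 ± 0.97 and Slc2a1 over Slc2a3 by 2.36 ± 1.43. In the sums, Eno1 and Slc2a1 kept the larger share in both populations. The share of Eno1 was 99.9% (99.45 to 100 over title numbers) in Fgf15+ and 94.8% (81.5 to 100) in Pou4f2+ Tomato- cells. That of Slc2a1 was 94.7% (62.9 to 100) and 72.96% (22.3 to 100). Ldha over Ldhb was higher by 1.23 ± 0.48, and the share of Ldha was 74.1% (65.7 to 87.2 over title numbers) in Fgf15+ and 54.4% (46.4 to 60.7) in Pou4f2+ Tomato- cells, with no overlap. In Pou4f2+ Tomato+ cells the share of Ldha was 32.8% (22.97 to 50.9), so Ldha over Ldhb differed by -1.25 ± 0.42 between the labels. Between the labels, Slc2a1 over Slc2a3 also differed by -1.93 ± 1.52, Pdk1 over Pdk2 by -1.39 ± 0.96, Pfkl over Pfkm by -1.06 ± 1.08 and Aldoa over Aldoc by -1.06 ± 0.77, and the other pairs by less than 1. Within the other pairs measured between the gates, Pdk3 over Pdk2 was higher by 1.40 ± 1.01 and Slc16a3 over Slc16a1 stood at -1.05 ± 0.65, and the phosphofructokinase pairs, the aldolase pair and Pdk1 over Pdk2 differed by less than 1.

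**Figure D3:**
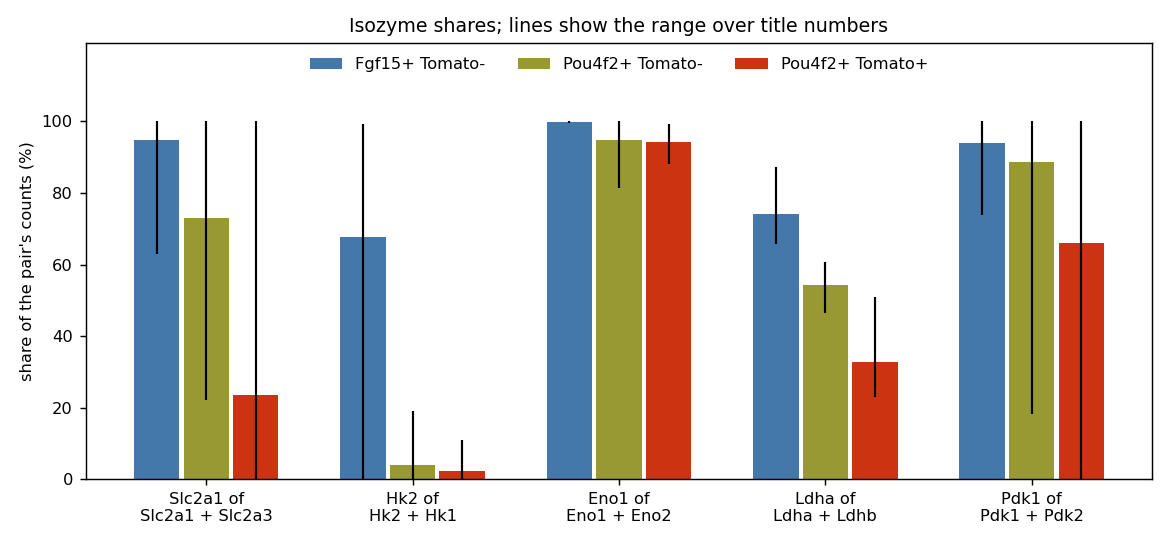
Share of the first gene in the summed counts of its isozyme pair, in percent, for Fgf15+ Tomato-, Pou4f2+ Tomato- and Pou4f2+ Tomato+ cells; black lines are the range over title numbers and bars start at 0. The share of Ldha steps from 74.1% to 54.4% to 32.8%, and that of Hk2 from 67.7% to 4.10% and 2.42%; the heights of different pairs cannot be compared, since they depend on transcript length.

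In the Atoh7+ cells, 31 of 32 members were within 2-fold of the Fgf15+ cells, but most leaned lower. The log2 ratio was below 0 for 23 members and above 0 for 9. The members' median was -0.21, against -0.01 over the 8907 genes with a mean of at least 10 CPM. All 10 members of the preparatory phase were below 0, with a median of -0.67. Each of them was within 2-fold, and only 5 lay beyond the SD between title numbers. The medians of the payoff, lactate, pyruvate entry and hypoxia response members were -0.12, -0.04, 0.05 and -0.09. That of the 2 glucose transporters was -0.79. The share of all genes below 0 was not counted. Of the 46 Atoh7+ cells, 26 were also Fgf15+ and 9 Pou4f2+, and only 3 title numbers held 5 or more. Slc2a1 was the 1 member past 2-fold, lower at 100.1 against 211.2 CPM (log2 ratio -1.01). None was higher, where 6.25% of 8907 genes were lower and 2.38% higher. Slc2a1 was also the 1 member whose title numbers lay below those of Fgf15+ cells with no overlap, and 0 members lay above, where 2.67% and 0.674% of genes did. Against Pou4f2+ Tomato- cells, 4 members were higher (Slc2a1, Hk2, Slc16a1 and Pdk3) and 5 lower (Hk1, Pfkp, Pfkfb3, Eno2 and Pdha1), where 11.2% of 8909 genes were higher and 13% lower. Title numbers did not overlap for 1 lower member, Pfkp, and for 0 higher ones, where 3.5% and 1.77% of genes behaved so. Pfkp was at 75.8 CPM and Eno2 at 0 counts in Atoh7+ cells. With a gate of 20 counts, 8 members were lower than in Fgf15+ cells and 1 was higher. The share over all genes was not computed at that gate, so these counts are not read as a result about the members.

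Tomato- cells were also split into marker combinations that share no cell. Slc2a1 was at 260.8 CPM in the cells with Fgf15 only, 142.6 CPM in 22 cells with Fgf15 and Atoh7, 73.9 CPM in 15 cells with Atoh7 only, 53.9 CPM in 5 cells with Atoh7 and Pou4f2, and 20.7 CPM in 61 cells with Pou4f2 only. Each of these exact Poisson intervals excludes its neighbours, apart from Atoh7 only against Atoh7 with Pou4f2, and the intervals cover counting error only. Hk2 was at 54.1, 33, 31.7, 0.665 and 0.957 CPM in the same order. Ldha was at 873, 950, 525, 261.3 and 469 CPM, so the lowest level was in the 5 cells with Atoh7 and Pou4f2. Eno2 was at 0.632 CPM in the cells with Fgf15 only, had 0 counts in the 3 combinations with Atoh7, and was at 38.8 CPM with Pou4f2 only. Hk1 followed with 18.2, 3.11, 0.259, 0 and 44.9 CPM, and Pfkp with 121.1, 85.5, 103.8, 7.98 and 386.6 CPM. No time order is assumed. The 27 cells with Fgf15 and Pou4f2 had 70.7 CPM of Slc2a1, 728 CPM of Ldha, 361.9 CPM of Pfkp and 2.21 CPM of Eno2; cells captured together were not called and could be among them.

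**Figure D4:**
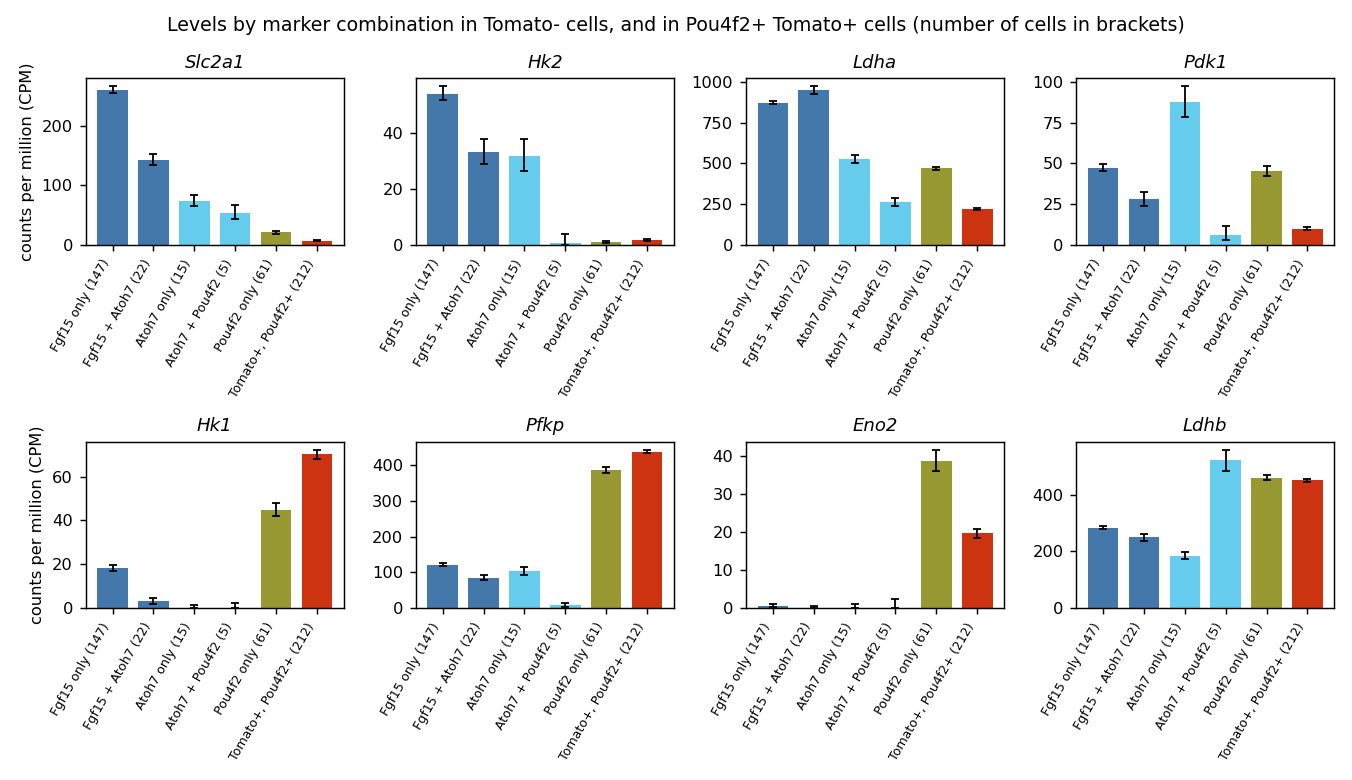
CPM of 8 members in marker combinations of Tomato- cells that share no cell, and in Pou4f2+ Tomato+ cells, with the number of cells in brackets; bars start at 0 and whiskers are exact 95% Poisson intervals, which cover counting error only. Slc2a1 steps down from 260.8 CPM to 7.09 CPM, while Pfkp is at 386.6 and 438 CPM in the last 2 populations and at 121.1 CPM or less in the others drawn, which leave out the 27 cells with Fgf15 and Pou4f2 (361.9 CPM).

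Over all kept cells, Tomato+ against Tomato-, 5 members were more than 2-fold lower (Slc2a1, Hk2, Ldha, Pdk1 and Vegfa) and 2 higher (Hk1 and Pfkm, of which Hk1 was within 2-fold without title number 8, 9, 11, 13 or 14), where 7.03% of 9094 genes were lower and 3.3% higher. Title numbers did not overlap for 4 lower members (Slc2a1, Pkm, Ldha and Slc16a3) and 1 higher (Pfkp), where 3.42% and 1.88% of genes behaved so. Slc2a1 ran from 2.58 to 13.99 CPM in Tomato+ and from 68.4 to 272.6 CPM in Tomato- cells, and Slc16a3 from 1.35 to 7.98 and from 8.22 to 29.5 CPM. Pfkp ran from 366.6 to 513 CPM in Tomato+ and from 150.6 to 357.7 CPM in Tomato- cells. The log2 ratio of the Tomato+ to the Tomato- scaling factor was -0.123 by trimmed means and -0.137 by median ratios. With these factors in place of the totals alone, the log2 ratio of Ldha moved from -1.41 to -1.29 and -1.28 and that of Hk2, a lower gene on which the added 10 CPM weighs more, from -1.50 to -1.44 and -1.43, and 4 members were then lower, Vegfa no longer among them. The mix of cells moved with this contrast: 9 of 10 progenitor markers were lower in Tomato+ cells, with summed levels of 37.2 to 550 against 3032 to 5303 CPM over title numbers, and 7 of 12 RGC markers higher. Among microglia markers 6 of 8 were lower, with a summed level from 0.194 to 1094 CPM over Tomato- title numbers, and 5 of 6 erythroid genes were higher in Tomato+ cells, at 1.70 to 9261 CPM. Their part in these values was not tested, except that leaving out cells with 100 or more counts of the globin gene Hbb-y left the counts of 5 and 2.

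The 18 members of the preparatory and payoff phases together with Ldha and Ldhb took 0.503% of all counts in Fgf15+ cells (0.412 to 0.576 over title numbers), 0.457% in Pou4f2+ Tomato- cells (0.343 to 0.541) and 0.345% in Pou4f2+ Tomato+ cells (0.298 to 0.375). The ranges of the Tomato- gates overlapped widely, and the labels overlapped at the edge of their ranges.

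Genes of neighbouring pathways were taken from lists by function, which also hold genes below 10 CPM. Over genes with a mean of at least 10 CPM, 9.2% were more than 2-fold higher in Fgf15+ than in Pou4f2+ Tomato- cells and 6.42% lower. Between the labels in Pou4f2+ cells, 2.11% were higher in Tomato+ cells and 2.93% lower. Between the gates, serine and one-carbon synthesis, which branches from glycolysis, had 4 of 7 genes more than 2-fold higher in Fgf15+ cells and a median log2 ratio of 1.05. Shmt1 was at 34.03 against 1.40 CPM, Phgdh, the entry enzyme of serine synthesis, at 22.2 against 2.57 CPM, and Shmt2, the mitochondrial serine hydroxymethyltransferase, at 49.7 against 14.03 CPM. The same list had 0 of 7 past 2-fold between the labels in Pou4f2+ cells. The pentose phosphate list had 1 of 7 higher between the gates, Rpia, the ribose phosphate isomerase, at 34.9 against 10.1 CPM. G6pdx and Rpe stayed within 2-fold at 59.3 against 44.4 CPM and 19.4 against 11.5 CPM.

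Of 24 other hypoxia response genes, 2 were higher between the gates (P4ha1 at 61.1 against 20.6 CPM, and Ndrg1 at 93.6 against 36.7 CPM) and 1 was lower (Egln2 at 28.9 against 69.4 CPM). These counts were not above the shares over all genes, 9.2% higher and 6.42% lower, and are not read as a result about the list. Between the labels in Pou4f2+ cells, 0 of 24 passed 2-fold. P4ha1 encodes a collagen prolyl hydroxylase and Egln2 an oxygen sensor. Of the 21 other glycolysis genes, none passed 2-fold between the gates and 2 were lower in Tomato+ than in Tomato- cells of the Pou4f2+ gate, Pfkfb1 at 1.26 against 14.03 CPM and Adpgk at 7.04 against 25.2 CPM. Among those named by the size of their difference between the gates, Eno3, the muscle enolase, was at 26.8 against 14.1 CPM and Slc2a8, a glucose transporter, at 7.34 against 18.04 CPM.

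Mitochondrial genes were also listed by function, and the shares over all genes between the gates were again 9.2% higher and 6.42% lower. The respiratory chain had 0 of 15 genes past 2-fold in either comparison, with median log2 ratios of -0.06 between the gates and 0.10 between the labels, and the largest difference between the gates was that of Cox5a at 265.2 against 408 CPM. Of the pyruvate dehydrogenase and citrate cycle list, 1 of 18 was lower in Fgf15+ cells, the phosphatase gene Pdp1 at 20.5 against 54.5 CPM, which reverses the action of the Pdk kinases. In the same list Idh3g was at 165.3 against 99.3 CPM and Sdha at 175.6 against 115.1 CPM. Of the malate-aspartate and glycerol phosphate shuttles 0 of 9 passed, with Gpd2 at 48.8 against 25.4 CPM. Nrf1 at 85.3 against 23.3 CPM and Tfam at 73.4 against 28.9 CPM, both regulators of mitochondrial gene expression, were the 2 of 4 biogenesis genes that were higher. Neither Mycn, at 43.6 against 50.9 CPM, nor Tsc22d1, at 231.1 against 382.7 CPM, passed 2-fold.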

How the data were processed

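Single-cell libraries of 800 cells were analysed as whole-number counts per gene, as deposited by the authors in 1 table of the whole series. Its header calls the values UMI counts, but whether they are molecules or reads is not stated elsewhere, and the labels name SmartSeq2. Per the submitters' processing notes the build was mm10 and Seurat 2.3 in R 3.4.4 was used. The aligner, counter, annotation and use of strand are not given in the sources used here, so Slc2a1, Hk1, Gpi1, Pfkm, Pfkp, Aldoa, Tpi1, Gapdh, Pkm, Pdha1, Mpc1, Bnip3 and Hif1a cannot be separated from overlapping neighbours. The treatment of reads that match several similar sequences is not given either, so the levels of single members may be incomplete. Of 801 columns, 1 matched no sample and was not used, and 0 columns were identical.

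Cells with more than 20% mitochondrial counts were removed (73 Tomato+, 38 Tomato-), and doublets were not called. Counts were summed per population, scaled to CPM by the total and compared as log2 ratios with 10 CPM added, for genes with a mean of at least 10 CPM where all genes were counted. Intervals are exact 95% Poisson or Clopper-Pearson intervals and, like the floor of 3 counts behind a 0, cover counting error only. Each label is 1 sample, so no test was run. The members and lists were chosen with earlier results of these data known. All 32 members are accounted for, and of each other list the 3 genes of at least 10 CPM with the largest log2 ratio between the gates were to be named, of which 1 is not reported here. Python 3.11.15, numpy 2.4.6, pandas 2.3.3 and scipy 1.17.1 were used, with edgeR 4.0.16 and DESeq2 1.42.0 in R 4.3.3 for other scalings only. The scripts were tested on simulated data. Alternatives covered the added CPM, scaling, the mitochondrial limit, the marker gate, cell weights and each title number left out.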

Additional observations from a re-analysis of the deposited data

Results flagged for a closer look

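In 5 of 64 sets of 10 title numbers (each member in each label), the highest or lowest value stood apart from the rest by more than Dixon's 95% critical value, and chance flags about 1 set in 20. Slc2a3 was at 80.2 CPM in title number 7 of the Tomato+ cells, against 3.23 to 23.7 CPM in the others. Gapdh was at 110 CPM in title number 8 of the Tomato+ cells, against 166.1 to 234.7 CPM in the others. Egln3 was at 0.169 CPM in that same title number, from a single count, and at 0 in the others. In title number 11 of the Tomato- cells, Mpc1 was at 11.03 CPM against 0.119 to 1.99 CPM elsewhere, and Egln3 was at 12.4 CPM against 0 to 3.28 CPM.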

How the results depend on the processing

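No paired analysis was possible because the labels share no title number and each is 1 sample, so no test was run. The Fgf15+ and Pou4f2+ Tomato- gates do share title numbers 11 to 20, and there the direction was counted within title numbers. No log2 ratio that passed 2-fold changed sign under any alternative. Leaving out title numbers in turn gave 1 to 2 members higher in Tomato+ over all kept cells, 2 to 4 higher in Fgf15+ than Pou4f2+ Tomato- cells, and 0 to 1 higher in Tomato+ among Pou4f2+ cells, while the counts of lower members stayed at 5, 3 and 5. With 1 CPM added, over all cells 8 members were lower and 4 higher, among Pou4f2+ cells 3 were higher, and between the gates Hk2 over Hk1 differed by 4.97 and Eno1 over Eno2 by 4.37. With at most 10% mitochondrial counts, or without title numbers 8 and 10 (this does not apply to the gates within Tomato- cells), 1 member was higher over all cells and 0 among Pou4f2+ cells. With at most 10% mitochondrial counts, 2 members in place of 3 were lower in Fgf15+ than in Pou4f2+ Tomato- cells, since Pfkfb3 was at -0.80. A gate of 1 count left 0 members lower and 0 higher between Fgf15+ and Pou4f2+ Tomato- cells, with Slc2a1 at 0.69 and Hk2 at 0.78, and likewise 0 lower for Atoh7+ against Fgf15+ cells and 0 in both directions for Atoh7+ against Pou4f2+ cells. A gate of 20 counts gave 8 lower and 1 higher for Atoh7+ against Fgf15+ and 8 lower for Atoh7+ against Pou4f2+ cells. Shares over all genes were computed only at the gate of 5 counts, so member counts at other gates have none beside them. Among Pou4f2+ cells, leaving out Fgf15+ and Atoh7+ cells gave 0 higher, and keeping only cells with 3 of 4 RGC genes gave 0 higher. Leaving out Ccnd1+ and Top2a+ cells as well gave 3 lower and 2 higher, and Ldha was at -0.61. The last pair of alternatives was chosen after seeing the data. The cause of these changes was not tested. With no filter on level, 3.19% of genes were lower and 1.36% higher over all cells, 3.05% and 4.65% between the gates, and 1.39% and 1.03% among Pou4f2+ cells.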
